A study of Homo sapiens with 8 samples.

Results

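Smooth muscle actin and the contractile genes that accompany it were followed as a set of 10 genes: ACTA2, ACTG2, TAGLN, CNN1, CNN2, CNN3, MYL9, TPM1, TPM2 and CALD1. They were chosen by symbol, with earlier results of these data known, from a deposited table of 28859 genes. All 10 were in that table, and 9 of them passed the filter on low counts, which asked for 10 or more normalized counts in no fewer than 2 libraries and left 14881 genes in all. RNA had been sequenced from T47D, an established human breast cancer cell line of luminal, hormone-receptor-positive type. The cells of each group carried a plasmid: a control plasmid (control), a plasmid for HA-tagged GATA3 in wild-type form (wild type), or a plasmid for a truncated HA-tagged GATA3, either TR1 or TR2. Each of the 4 groups had 2 libraries. The labels do not say which promoter drove the plasmids, whether the cells were clones or pools, or whether replicates were separate cultures, so p-values measure only the spread between these samples.

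Reads assigned to genes numbered from 13292861 to 19572394 per library. The 2 TR1 libraries differed more from each other (SD of the log2 difference over tested genes 0.443) than replicates of the other groups did (0.279 to 0.331). GATA3, the gene carried by the plasmids, had 13726 and 12676 normalized counts in the control libraries, 13555 and 13833 with wild type, 9506 and 8638 with TR1, and 10235 and 10588 with TR2. The counts do not separate plasmid from chromosomal GATA3, and no GATA3 plasmid gave a higher GATA3 count that passed the test against control, so they give no check of the plasmid labels. The luminal identity of the line was visible in every library: none of 9 luminal epithelial markers was at 0, and their summed normalized counts lay between 142724 and 175833. GATA3 is among these 9, and its counts in the GATA3 plasmid groups do not speak to identity.

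In smooth muscle and in contractile epithelial cells, force comes from myosin filaments that pull on actin filaments. ACTA2 and ACTG2 encode the smooth muscle actins. TAGLN (transgelin), the calponins CNN1 to CNN3 and CALD1 (caldesmon) bind actin filaments, the tropomyosins TPM1 and TPM2 lie along them, and MYL9 is a regulatory light chain of myosin whose phosphorylation starts contraction. Many of these genes are classical targets of serum response factor (SRF), which binds a DNA element named the CArG box together with cofactors of the myocardin family. In the breast, ACTA2 and its companions mark myoepithelial cells, pericytes, vascular muscle and activated fibroblasts, while luminal cells carry mostly the non-muscle forms.

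Upstream sequence of 4 members is shown because these are the actins and the calponins whose levels are set side by side below, and because they differ in CArG boxes. The stretches are from RefSeq (GRCh38.p14), 5′ to 3′ in the direction of the gene. They begin 250 bases before a RefSeq start and end at that start or where a transcribed leader annotated in GENCODE begins. For ACTA2 the more downstream of 2 RefSeq starts is shown (chr10:88952774-88953023, minus strand), because its window held more CArG matches. The window of the other ACTA2 start held no CArG match and no GATA word. The others are ACTG2 (chr2:73892758-73892943, plus strand), CNN2 (chr19:1026358-1026580, plus strand) and CNN1 (chr19:11538601-11538716, plus strand). Capitals mark CArG boxes with at most 1 letter other than the consensus, and the GATA words AGATAA or TGATAA or AGATAG or TGATAG, searched on both strands, none of which overlapped another match here.
ACTA2: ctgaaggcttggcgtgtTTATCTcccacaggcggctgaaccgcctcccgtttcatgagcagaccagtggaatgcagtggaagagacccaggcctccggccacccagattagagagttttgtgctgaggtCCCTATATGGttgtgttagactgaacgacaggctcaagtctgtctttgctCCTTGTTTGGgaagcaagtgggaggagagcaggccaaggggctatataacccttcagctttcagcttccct
ACTG2: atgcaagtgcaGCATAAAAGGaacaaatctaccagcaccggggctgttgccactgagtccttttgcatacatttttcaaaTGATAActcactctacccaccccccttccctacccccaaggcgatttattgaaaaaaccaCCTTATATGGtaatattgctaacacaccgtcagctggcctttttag
CNN2: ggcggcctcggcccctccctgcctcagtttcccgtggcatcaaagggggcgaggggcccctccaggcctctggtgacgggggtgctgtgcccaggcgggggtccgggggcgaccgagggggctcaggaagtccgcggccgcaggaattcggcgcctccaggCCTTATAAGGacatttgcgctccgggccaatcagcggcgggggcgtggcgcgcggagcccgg
CNN1: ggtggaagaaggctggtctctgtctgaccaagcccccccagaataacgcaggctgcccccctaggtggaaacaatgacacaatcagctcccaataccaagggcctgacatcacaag

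Of the 10 members, 8 matched the RefSeq promoter table, with 14 windows of 250 bases before a start. TAGLN and MYL9 were not among them. Exact CArG boxes were found in ACTG2, CCTTATATGG at 110 and CCTTTTTAGG at 73 bases before the start (the second runs past the end of the printed stretch), and in CNN2, CCTTATAAGG at 89 bases before the start. Exact boxes occurred in 1.16% of 35116 RefSeq windows of this length. With at most 1 other letter, ACTA2 held CCCTATATGG at 121 and CCTTGTTTGG at 71 bases before the shown start, and CALD1 held a match in 2 of its windows. Such looser matches, exact boxes included, occurred in 5 of the 14 member windows and in 16.76% of all windows. A GATA word was found in 3 of the 14 member windows and in 22.33% of all windows. These 3 were in ACTA2 (TTATCT, the reverse complement of AGATAA, 233 bases before the start), ACTG2 (TGATAA, 170 bases) and CNN3 (TTATCT, 223 bases). CNN1 held none of these letters in its window.

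**Figure D1:**
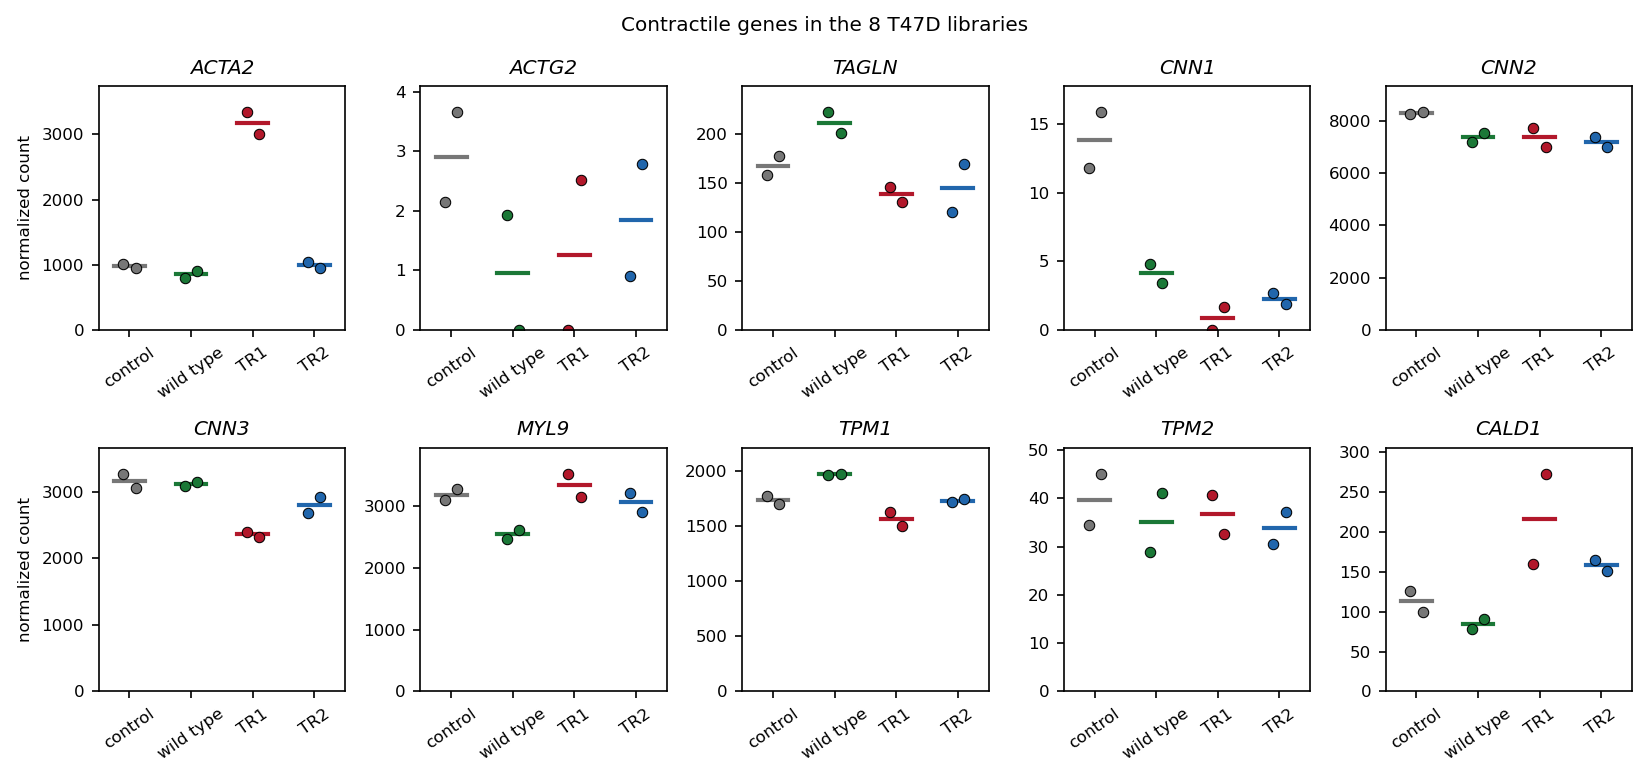
Normalized counts (vertical axes, linear and starting at 0) of the 10 contractile genes in the 8 libraries, with points for libraries and bars for the mean of the 2 libraries of each group. The TR1 libraries stand above all others for ACTA2, the control libraries stand above all others for CNN1, and ACTG2 stays under 4 throughout.

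ACTA2 was the member that moved most among those well covered by reads: its mean was 3.25 times the control mean with TR1 and stayed near the control level with wild type and TR2. The gene lies at chr10:88935074-88991339 on the minus strand (GENCODE 29, GRCh38). Its normalized counts were 1008 and 943 in control, 804 and 912 with wild type, 3342 and 3001 with TR1, and 1042 and 955 with TR2. Both TR1 libraries lay above all 6 others, which spanned 804 to 1042. The mean with TR1 was 3171 ± 241 (SD, n = 2) against 976 ± 45.9 in control, with no overlap between the groups. On the log2 scale the difference was 1.70 ± 0.09 (SE; 95% interval 1.49 to 1.91, limma adjusted p = 2.1e-05).

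ACTA2 was also higher with TR1 than with wild type, by 1.89 on the log2 scale (limma adjusted p = 5.35e-06). The truncated forms differed from each other: ACTA2 was lower by 1.67 with TR2 than with TR1 (log2 difference -1.67, adjusted p = 0.000114). TR2 and control were not distinguished, with a difference of 0.03 and a 95% interval of -0.18 to 0.24 (adjusted p = 0.878). The wild-type mean of 858 ± 75.9 lay below control by a log2 difference of -0.19 that did not pass (adjusted p = 0.439). These 3 calls for ACTA2 held in each of the 20 alternative analyses, and the largest adjusted p among them was 0.0068.

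ACTG2, the enteric smooth muscle actin, was barely detected. It had 2.15 and 3.66 normalized counts in control, 1.93 and 0 with wild type, 0 and 2.51 with TR1, and 0.899 and 2.78 with TR2. In reads these were 5, 2, 3 and 4 per group, so it was not tested, and a difference between groups was not detectable at this depth. The rise of smooth muscle actin RNA with TR1 was thus measured on ACTA2 alone. By sequence the actins could be told apart: of the 2972 distinct 50-base words in ACTA2 transcripts, 0 were shared with ACTG2, ACTB, ACTG1, ACTA1 or ACTC1, and 0.87% with any other gene.

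Neighbouring transcription units overlap ACTA2 on the other strand. The labels name a strand-specific kit, but the strand setting of the counting is not given in the sources used here, so reads from both strands of an overlap cannot be told apart. FAS, which encodes a death receptor and starts beside the upstream ACTA2 start, shares 380 exonic bases with ACTA2 (12.77% of the ACTA2 exonic bases), and the antisense RNA ACTA2-AS1 shares 516 (17.34%). FAS had 291 and 279 normalized counts in control, 323 and 322 with wild type, 523 and 681 with TR1, and 369 and 358 with TR2. FAS was higher with TR1 than in control by 1.06 on the log2 scale (adjusted p = 0.00129) and than with wild type by 0.89 (adjusted p = 0.00218). Its TR2 level was below TR1 by a log2 difference of -0.71 (adjusted p = 0.0353), a call that was lost in 10 of 20 alternatives (adjusted p up to 0.299).

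The part of FAS reads in the ACTA2 values was not tested. ACTA2-AS1 had between 2.28 and 17.5 normalized counts in the 8 libraries and was not tested. STAMBPL1, a deubiquitinase gene that spans part of the same locus, shares 0 exonic bases with ACTA2, had between 41.4 and 90.6 normalized counts, and passed the test in no comparison. Of the genes tested at this locus, ACTA2 and FAS were higher with TR1.

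**Figure D2:**
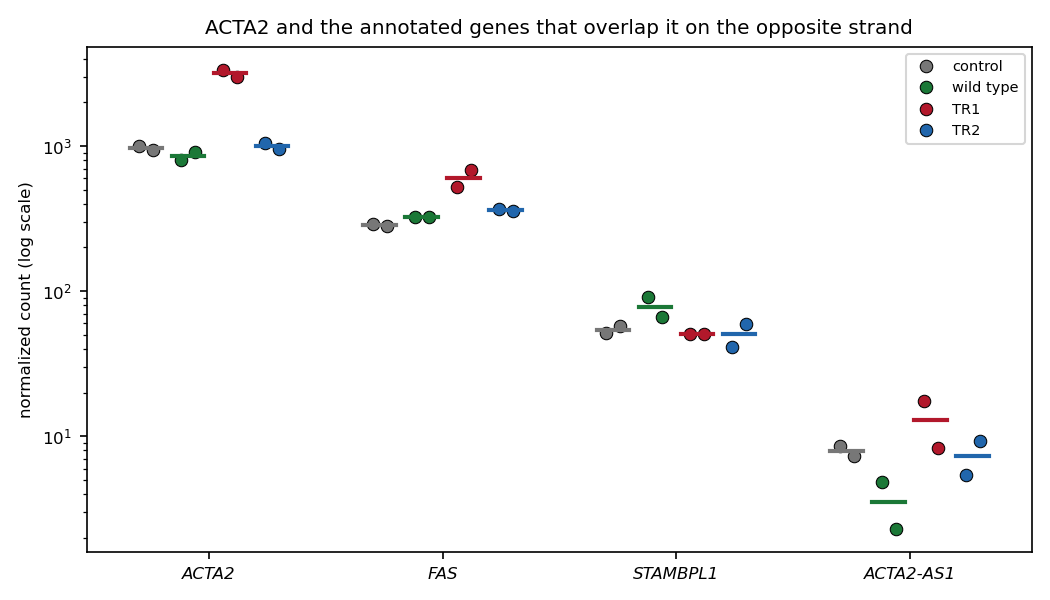
Normalized counts on a log axis for ACTA2 and the 3 annotated genes that overlap it on the opposite strand, with points for libraries and bars for the mean of 2 libraries. ACTA2 and FAS are highest in the TR1 libraries, whereas STAMBPL1 with TR1 (50.4 and 51.0) lies close to control (51.5 and 57.3).

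CNN1, the calponin of differentiated smooth muscle, went the other way from ACTA2, although at a very low level. Its normalized counts were 11.8 and 15.8 in control, 4.82 and 3.42 with wild type, 0 and 1.67 with TR1, and 2.70 and 1.86 with TR2. The control libraries lay above all others. Behind these values stood 24 reads in control, 8 with wild type, 2 with TR1 and 5 with TR2. CNN1 was 15.3 times higher in control than with TR1 by normalized reads, with a 95% counting interval of 3.79 to 133 that covers counting error only.

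The fitted CNN1 difference between TR1 and control was -3.17 ± 0.56 on the log2(count + 1) scale (adjusted p = 0.00927). CNN1 passed the filter only through the control group, where it was highest, so this p-value is no independent test of the fall. Without either control library CNN1 was not tested. The call was lost when voom, limma's precision weighting, was used with a separate weight for each group (adjusted p = 0.0588). Differences from control of -1.53 with wild type (adjusted p = 0.285) and -2.18 with TR2 (adjusted p = 0.13) did not pass.

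CNN3, the acidic calponin of non-muscle cells, fell modestly with TR1. It had 3271 and 3050 normalized counts in control, 3090 and 3149 with wild type, 2397 and 2321 with TR1, and 2687 and 2921 with TR2. Both TR1 libraries lay below all 6 others. The log2 difference was -0.42 ± 0.07 against control (adjusted p = 0.00602) and -0.40 against wild type (adjusted p = 0.00499). The first call was lost without the first control library (adjusted p = 0.0648) and with only these groups in the fit (0.0666), and the second without the second wild-type library (0.0645). TR2 lay between TR1 and control, and its differences from either did not pass (adjusted p = 0.184 and 0.263).

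CNN2, the calponin found in many cell types, was the most abundant member and varied little. Its normalized counts were 8268 and 8325 in control, 7203 and 7535 with wild type, 7727 and 7010 with TR1, and 7359 and 7001 with TR2. The control libraries lay above all others, but the log2 differences of -0.17, -0.17 and -0.21 from control for wild type, TR1 and TR2 did not pass (adjusted p = 0.3, 0.121 and 0.188). Wild type and TR1 had nearly equal CNN2 means, 7369 each, and their libraries overlapped. The 3 calponins thus differed widely in level. The calls against control with TR1 were for CNN3 and for CNN1, which entered the test through the control libraries alone.

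TAGLN, a smooth muscle actin-bundling protein, did not follow ACTA2. It had 158 and 178 normalized counts in control, 223 and 201 with wild type, 146 and 131 with TR1, and 120 and 170 with TR2. The wild-type libraries were the highest and the TR1 libraries lay below control. TAGLN was lower with TR1 than with wild type by a log2 difference of -0.61 ± 0.18, at the edge of the threshold (adjusted p = 0.0495, lost in 12 of 20 alternatives with adjusted p up to 0.252). PCSK7, a protease gene on the other strand, shares 446 exonic bases with TAGLN, had between 1140 and 1380 normalized counts, and passed in no comparison.

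CALD1, which blocks myosin binding to actin in smooth muscle and has a shorter form in other cells, was higher with both truncated forms than with wild type in every library. Its normalized counts were 126 and 100 in control, 78.0 and 90.2 with wild type, 159 and 273 with TR1, and 165 and 151 with TR2. The TR1 libraries were far apart, and the TR2 pair lay partly inside their range. The log2 difference between TR1 and wild type was 1.30 ± 0.24 (adjusted p = 0.00777), lost without the first wild-type library (adjusted p = 0.0726). Against control, TR1 gave 0.89 (adjusted p = 0.0502, under the threshold in 6 of 20 alternatives), and TR2 against wild type gave 0.90 (adjusted p = 0.0739, under it in 7 of 20).

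The second TR1 library, which holds the highest CALD1 value, also held the highest values of some other genes of contraction and SRF. These genes were picked after their values were seen. The members ACTA2, MYL9 and TPM1 were instead lower in the second TR1 library than in the first. ROCK1, a kinase that promotes contraction, had 314 and 782 normalized counts in the first and second TR1 library, ROCK2 had 236 and 632, and ELK4, an SRF partner, had 340 and 775. Without the first TR1 library the CALD1 difference between TR1 and control was 1.28 (adjusted p = 4.18e-05), and without the second it was 0.50 (adjusted p = 0.0958). The part of this library in the CALD1 values was not tested beyond these fits.

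TPM1, the tropomyosin of muscle and stress fibres, was highest with wild type. It had 1780 and 1708 normalized counts in control, 1965 and 1980 with wild type, 1636 and 1505 with TR1, and 1723 and 1747 with TR2. The wild-type libraries lay above and the TR1 libraries below all others. TPM1 was lower with TR1 than with wild type by a log2 difference of -0.33 ± 0.07 (adjusted p = 0.0129), lost without either wild-type library (adjusted p = 0.1 and 0.114), with median centring (0.0582) and with only these groups fitted (0.0834). The differences of wild type and TR1 from control did not pass (adjusted p = 0.309 and 0.178). TPM2 stayed between 28.9 and 45.1 normalized counts, its libraries overlapped in all 6 comparisons, and none passed.

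MYL9, the smooth muscle type regulatory light chain, was lowest with wild type. Its normalized counts were 3098 and 3270 in control, 2473 and 2610 with wild type, 3525 and 3148 with TR1, and 3212 and 2910 with TR2. The wild-type libraries lay below all others, and the remaining groups overlapped. TR1 was higher than wild type by 0.39 ± 0.08 on the log2 scale (adjusted p = 0.0125), a call lost in 5 of 20 alternatives, among them leaving out either wild-type library (adjusted p = 0.118 and 0.0687). The difference of MYL9 between wild type and control, -0.33, did not pass (adjusted p = 0.101), nor did that between TR1 and control, 0.07 (adjusted p = 0.618).

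**Figure D3:**
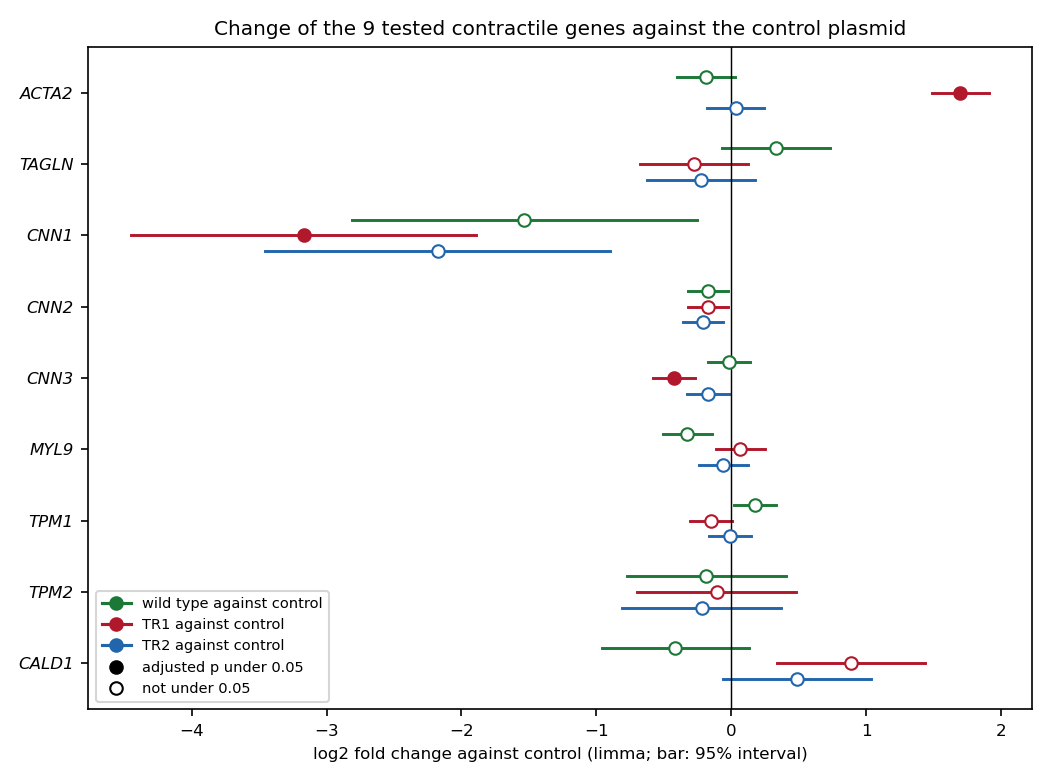
Log2 fold changes against the control plasmid (horizontal axis) of the 9 tested contractile genes for wild type, TR1 and TR2, with 95% intervals from limma as bars and filled points for adjusted p under 0.05. The filled points are the TR1 values of ACTA2 (1.70), CNN1 (-3.17) and CNN3 (-0.42). CNN1 entered the test through the control libraries alone.

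CNN1, which entered the test through the control libraries alone, was left out of the counts over members, which leaves 8. TR1 against control gave 1 of these higher (ACTA2) and 1 lower (CNN3), in a comparison that called 10.6% of all tested genes, 4.91% higher and 5.69% lower. TR1 against wild type gave 3 higher (ACTA2, CALD1 and MYL9) and 3 lower (TAGLN, CNN3 and TPM1), where 15% of all genes were called, 7.6% higher and 7.38% lower. TR2 against TR1 gave 0 higher and 1 lower (ACTA2), where 1.22% were called, 0.585% higher and 0.632% lower. Since the members were chosen with these comparisons known, the shares are given as a description.

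No member passed in the other 3 comparisons by limma on the deposited values or by voom with common weights. At the adjusted threshold they called 1.69% of all genes for wild type against control, 0.921% for TR2 against control (0.524% higher and 0.396% lower) and 5.24% for TR2 against wild type (2.75% higher and 2.49% lower). At an unadjusted p under 0.05 there were 3 of the 8 members for wild type against control, where 13.2% of all genes were under it, 2 for TR2 against control (17.2% of all genes) and 5 for TR2 against wild type (18.3%). With only the 4 libraries compared in the fit, these 3 comparisons called 2, 2 and 6 of the 8 members by adjusted p, beside 8.82%, 14.2% and 20% of all genes. The median log2 difference of the 8 members from control was -0.18 with wild type, -0.13 with TR1 and -0.12 with TR2, beside 0.01, 0.02 and -0.01 over all tested genes. The comparisons with control share the control libraries.

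The members differed widely in level. Per kilobase of annotated exon, control libraries held normalized counts of 2276 ± 11.2 (SD, n = 2) for CNN2, 1129 ± 43.2 for MYL9 and 1114 ± 55.1 for CNN3. MYL9 and CNN3 did not differ beyond their spread. ACTA2 followed at 328, TPM1 at 135 and TAGLN at 42.9, then TPM2 at 12.2 and CALD1 at 11.5, which also lay within their spread, CNN1 at 4.79 and ACTG2 at 0.762. With TR1 the per-kilobase level of ACTA2 was 1066 ± 81.1, above CNN3 (831 ± 19.0) and below MYL9 (1183 ± 94.6). The TR1 libraries had 1123 and 1008 for ACTA2 and 1250 and 1116 for MYL9, so these ranges overlapped. These values divide by all annotated exon bases, which were 2976 for ACTA2, 2821 for MYL9 and 12876 for TPM1. The longest annotated transcripts had 1349, 2821 and 3957 bases, so the order of the members depends on the length used.

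Of the 4 group means, the range for ACTA2 was 1.89 on the log2 scale, at the 97.7th percentile of tested genes, and that for CALD1 (1.30) was at the 95th. Apart from CNN1, the other 6 tested members lay between the 30.4th and the 76.8th, among them the abundant CNN2, CNN3, MYL9 and TPM1. The range for CNN1 was 3.17, set by its control libraries over a few reads in the other groups, and is not ranked.

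The 5 genes with the highest correlation to CNN1 over the 8 libraries, among 1318 genes whose group means span at least 1 on the log2 scale, were XXbac-BPG181M17.6 (Pearson r 0.94), ZNF32-AS2 (0.934), PRMT5-AS1 (0.922), PTAFR (0.921) and DUSP13 (0.902). CNN1 was taken because its range was the widest of the members, though it rests on few reads. Like CNN1, the genes XXbac-BPG181M17.6, ZNF32-AS2 and PRMT5-AS1 reached the filter level of 10 in the control libraries alone. The same list for ACTA2 was added after its values were seen and held TIMP3 (0.991), DPYS (0.988), DPYSL3 (0.988), DGAT2 (0.981) and JAK1 (0.978). TIMP3 (15.5 and 13.4 with TR1) and DPYS (25.2 and 29.3) were at 0 in every library without TR1. DPYSL3 had 32.0 and 32.6 with TR1 and 7.31 to 9.66 elsewhere. TIMP3, DPYS and DPYSL3 thus passed the filter through TR1 alone, and their high correlations come with that selection. JAK1, a cytokine receptor kinase, had between 1950 and 2721 normalized counts in the 6 libraries without TR1, and 5428 and 4812 with TR1. DGAT2, an enzyme of triglyceride synthesis, had between 51.1 and 70.1 without TR1, and 123 and 129 with it. These correlations describe libraries of shared groups and carry no p.

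Close relatives of the members are the non-muscle and sarcomeric forms. Of 12 listed, 11 were in the table and 9 were tested, and in TR1 against control 0 were higher and 1 was lower, a share near the 10.6% called over all genes. That gene was TAGLN2, the non-muscle transgelin, with 12057 and 13030 normalized counts in control, 12926 and 13031 with wild type, 8616 and 7897 with TR1, and 10560 and 9884 with TR2. TAGLN2 fell by 0.60 on the log2 scale with TR1 (log2 difference -0.60, adjusted p = 0.000937), in both TR1 libraries below all others. With TR2, TAGLN2 was below wild type (log2 difference -0.35, limma adjusted p = 0.0208, lost in 7 of 20 alternatives). ACTB, the main cytoplasmic actin, had between 101471 and 113984 normalized counts, and ACTG1 between 34411 and 45007. ACTG1 was higher with TR1 than with wild type by 0.28 on the log2 scale (adjusted p = 0.0227, lost in 6 of 20 alternatives).

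Other smooth muscle and actin-binding genes included some higher and some lower with TR1. Of 23 listed, 16 were tested; TR1 against control gave 3 higher and 1 lower, beside 4.91% and 5.69% of all genes, with a median log2 difference of -0.06 beside 0.02 over all genes. FHL2, a LIM-domain cofactor, had 1362 and 1401 normalized counts in control, 1379 and 1407 with wild type, 2855 and 2651 with TR1, and 1865 and 1804 with TR2. FHL2 was higher than control by 0.99 on the log2 scale with TR1 (adjusted p = 5.16e-05) and by 0.41 with TR2 (adjusted p = 0.0299, lost in 10 of 20 alternatives). TR2 was below TR1 for FHL2 by a log2 difference of -0.58 (adjusted p = 0.00457, lost with only these groups fitted and without either TR2 library, adjusted p up to 0.0906).

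LMOD1, the smooth muscle leiomodin that starts actin filaments, was lower with TR1, opposite to ACTA2. It had 309 and 238 normalized counts in control, 354 and 393 with wild type, 103 and 97.0 with TR1, and 169 and 184 with TR2. The TR1 libraries were lowest and the TR2 libraries next. With TR2, LMOD1 was below wild type by a log2 difference of -1.08 (limma adjusted p = 0.00373, lost in 2 of 20 alternatives). The log2 differences of LMOD1 with TR1 were -1.43 against control (adjusted p = 0.000614) and -1.89 against wild type (adjusted p = 7.37e-05), both kept in each alternative.

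SVIL (supervillin, which links actin and myosin to membranes) was higher than control with wild type, by 0.59 (adjusted p = 0.00758, lost without any of these 4 libraries), and with TR1, by 0.68 on the log2 scale (adjusted p = 0.00105). With TR2, SVIL had 579 and 582 normalized counts, beside 601 and 566 in control, and was below TR1 by a log2 difference of -0.68 (adjusted p = 0.00415, lost without either TR2 library and with only these groups fitted, adjusted p up to 0.0739). PDLIM3, an actinin-binding LIM protein, was higher with TR1 than in control by 0.81 (adjusted p = 0.00961, lost without the first control library and with only these groups fitted, adjusted p up to 0.0739) and lower with TR2 than with TR1, with a log2 difference of -0.87 (adjusted p = 0.0269, lost in 10 of 20 alternatives). SMTN (smoothelin) was lower with TR1 and TR2 than with wild type, with log2 differences of -0.29 and -0.40 (adjusted p = 0.0295 and 0.017, lost in 11 and 5 of 20 alternatives). MYH11, the smooth muscle myosin heavy chain, had at most 7.99 normalized counts, and DES (desmin) was at 0 in all 8 libraries.

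Of SRF and its cofactors, 6 of 7 listed genes were tested, and TR1 against control gave 1 higher and 1 lower, beside 4.91% and 5.69% of all genes. ELK3, an SRF partner of the ETS family, had 89.1 and 70.7 normalized counts in control, 153 and 143 with wild type, 150 and 168 with TR1, and 107 and 125 with TR2. It was higher than control with wild type by 0.89 (adjusted p = 0.0329, lost in 10 of 20 alternatives) and with TR1 by 0.99 on the log2 scale (adjusted p = 0.00627, lost without the second control library, 0.0514). MKL1 (the older symbol of MRTFA, the actin-sensing SRF cofactor) was lower with TR1 than in control, with a log2 difference of -0.35 (adjusted p = 0.0409, lost in 12 of 19 alternatives). SRF had 1347 and 1310 normalized counts in control and 1609 and 1486 with TR1. It was higher with TR1 than with wild type by 0.24 on the log2 scale (adjusted p = 0.0483, lost in 14 of 20). The SRF and smooth muscle lists were written with earlier results of these data known.

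**Figure D4:**
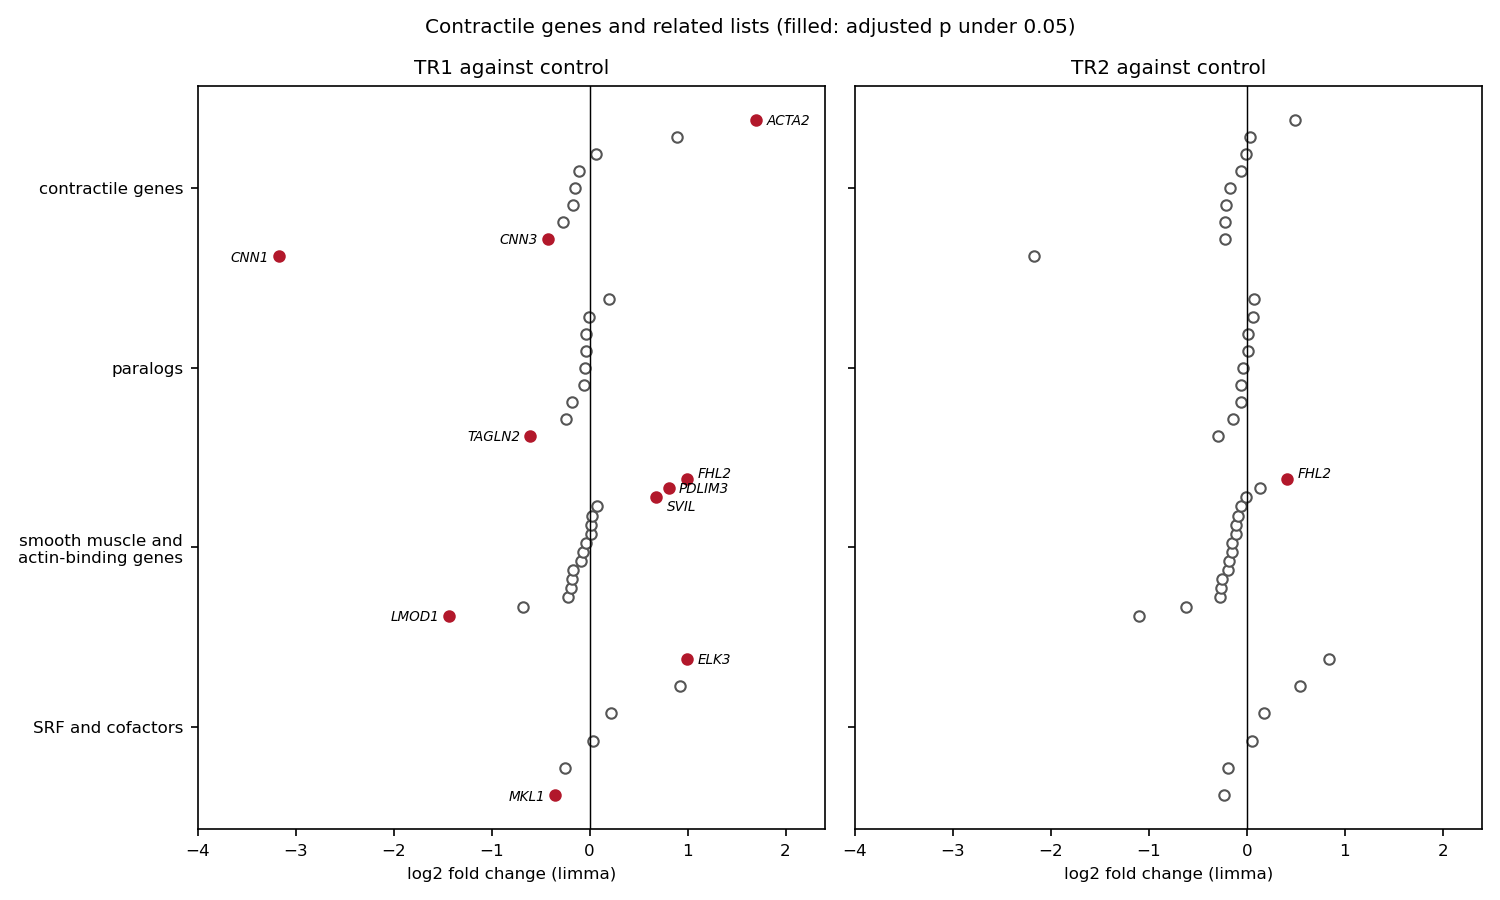
Log2 fold changes (horizontal axis, limma) against control for TR1 (left) and TR2 (right), with 1 point per tested gene of the contractile set and of 3 related lists, ordered by value within each list, filled and named where the adjusted p was under 0.05. With TR1, ACTA2 (1.70) and FHL2 (0.99) lie to the right and CNN1 (-3.17) and LMOD1 (-1.43) to the left. With TR2 the only filled point is FHL2 (0.41). CNN1 passed the filter through the control libraries alone.

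Cell types in which ACTA2 is a standard marker were looked for in the same libraries. In bulk RNA, fewer cells of a type and less RNA per cell cannot be told apart. Of 8 myoepithelial markers, 4 were tested and 0 passed against control with TR1, where 10.6% of all genes were called. With 4 genes, 0 is near that share. The median log2 difference of the 4 was 0.39, beside 0.02 over all genes. The basal keratins KRT5 and KRT14 had at most 2.70 and 1.07 normalized counts. The summed list lay between 2371 and 2446 in control and between 1916 and 1926 with wild type. It lay between 2706 and 3019 with TR1 and between 2436 and 2546 with TR2, and was mostly CDH3 (P-cadherin). CDH3 was higher with TR1 than with wild type by 0.59 on the log2 scale (adjusted p = 0.000925). With TR2, CDH3 was above wild type by 0.38 (limma adjusted p = 0.0176, lost in 6 of 20 alternatives).

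Of 9 pericyte and vascular smooth muscle markers, 4 were tested, and 0 were higher and 3 lower with TR1 than in control, where 5.69% of all genes were lower. These were KCNJ8 (log2 difference -1.91, adjusted p = 0.00773), MCAM (-1.36, adjusted p = 0.00264) and CSPG4 (-0.69, adjusted p = 0.00953). The KCNJ8 call was lost without the first control library (adjusted p = 0.0671) and with voom and a weight for each group (0.108). The CSPG4 call was lost without the second control library (adjusted p = 0.0826) and with only these groups fitted (0.07). MCAM was also lower with TR2 than in control (-1.12, adjusted p = 0.0299, lost in 9 of 20 alternatives). KCNJ8 was lower with TR2 than with wild type (-1.85, limma adjusted p = 0.0134, lost in 3 of 19 alternatives). DES was at 0 in all libraries and PDGFRB had at most 2.51 normalized counts. The summed list lay between 6415 and 6678 in control and between 5431 and 5898 with wild type. It lay between 5075 and 5576 with TR1 and between 5013 and 5235 with TR2. Most of it was NOTCH3, with means of 5921 in control, 5121 with wild type, 5005 with TR1 and 4742 with TR2. NOTCH3 was tested and did not pass with TR1 against control.

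Some fibroblast markers had their highest levels with TR1. Of 9 listed, 7 were in the table and 4 were tested, but DCN and COL3A1 entered the test through the TR1 libraries alone, so their levels are given with no test. DCN (decorin) had 64.0 and 58.6 normalized counts with TR1, 2.70 and 1.86 with TR2 and 0 in the other 4 libraries. COL3A1 had 20.4 and 18.4 with TR1, 3.60 and 3.71 with TR2 and 0 in the other 4, and LUM, not tested, had 7.76 and 27.6 with TR1 and 0 elsewhere. COL1A1, by contrast, was lower with TR1 than in control (log2 difference -0.78, adjusted p = 0.00291), and COL1A2 was at 0 in all 8 libraries. With TR2, COL1A1 was below wild type (log2 difference -0.61, limma adjusted p = 0.0146, lost in 4 of 20 alternatives). The summed list lay at 397 in both control libraries and between 411 and 447 with wild type. It lay between 325 and 355 with TR1 and between 270 and 296 with TR2, and was mostly COL1A1. The part of these markers in the ACTA2 rise was not tested.

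Endothelial and leukocyte markers had summed normalized counts of at most 10.7 in any library. Of the luminal markers, KRT8 and KRT19 were higher with TR1 than in control, by 0.36 and 0.39 on the log2 scale (adjusted p = 0.01 and 0.0087, lost in 5 and 4 of 20 alternatives), and GATA3 and FOXA1 were lower, with log2 differences of -0.54 and -0.28 (adjusted p = 0.00149 and 0.0324, the latter lost in 11 of 20). ESR1 was higher with TR1 than with wild type by 0.50 on the log2 scale (limma adjusted p = 0.00319, kept in each alternative). With TR2, ESR1 was above wild type by 0.36 (limma adjusted p = 0.0286, lost in 9 of 20 alternatives). The mitochondrially encoded genes took between 6.35% and 7.30% of reads in every library. Of these 13 genes, 3 were higher with TR1 than in control, beside 4.91% of all genes. They were MT-ND1 (log2 difference 0.46, adjusted p = 0.00485, kept in each alternative), MT-ND2 (0.30, adjusted p = 0.0223, lost in 10 of 20 alternatives, with 0.08 under quantile normalization) and MT-CYB (0.29, adjusted p = 0.0237, lost in 8 of 20).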

How the data were processed

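T47D cells with a control, wild-type GATA3, TR1 or TR2 plasmid gave 8 RNA-seq libraries, grouped by the labels. The authors deposited log2(normalized count + 1) values per gene symbol. Per the submitters' processing notes, reads were handled with TopHat and HTSeq on hg38; versions are not named. The annotation, strand setting and library factors are not given in the sources used here. Turned back to the linear scale, 100% of values were whole multiples of 1 step per library within 0.01 reads, which gave the reads.

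Genes reaching 10 normalized counts in 2 or more libraries were tested with limma 3.58.1 (R 4.3.3; lmFit, contrasts and eBayes with trend) on the log2 values as deposited. A fit by group took in all 8 libraries, with 4 residual degrees of freedom. Tests were two-sided, with Benjamini-Hochberg adjustment over all tested genes within each of 6 comparisons and a threshold of 0.05. Fold changes on the log2(count + 1) scale understate those of low genes. The procedure was run on simulated counts with a common spread in all groups. The TR1 libraries here differed more from each other than other replicates did, so the simulation is no check of that case. Coordinates and exon lengths came from GENCODE 29 (GRCh38). Counting intervals are exact binomial.

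Named are all members, GATA3 and the genes most like the member of widest range. Up to 4 genes per list and comparison past the threshold with the largest change are also named. Not every comparison of these genes is given. FAS, STAMBPL1, ACTA2-AS1, PCSK7, ROCK1, ROCK2, ELK4 and list genes given with levels only were named after their values were seen. Members and lists were chosen with earlier results of these data known. The results of 1 further list are not reported here.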

Additional observations from a re-analysis of the deposited data

How the results depend on the processing

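The ACTA2 calls with TR1 and the directions of all called members were kept in each of the 20 alternatives that gave a value. CNN1 is included in the counts of members called given here, although it entered the test through the control libraries alone. Its calls against control are no independent test. The number of members called was 3 for TR1 against control and 6 for TR1 against wild type. It was 1 for TR2 against TR1 and 0 in the others, and moved as follows. With only the groups compared in the fit it was 3 for wild type against control and for TR2 against control, 2 for TR1 against control (CNN3 lost), 3 for TR1 against wild type and 6 for TR2 against wild type. With quantile normalization it was 1 for TR2 against control and 1 for TR2 against wild type, where median centring also gave 1. For TR1 against control it was 4, with CALD1, under quantile normalization, median centring, robust empirical Bayes and a pseudocount of 10, and 2 with voom and a weight for each group and with a stricter filter of 100 normalized counts. For TR1 against wild type it was 4 with median centring (MYL9 and TPM1 lost) and when the prior variance had no trend (MYL9 and TAGLN lost), and 5 with no filter, with the stricter filter and with voom and a weight for each group (TAGLN lost). With voom and a weight for each group it was 2, 2 and 4 for wild type against control, TR2 against control and TR2 against wild type. With a trend in transcript length and GC content removed it was 5 for TR1 against control, 2 for TR2 against wild type and 2 for TR2 against TR1. Leaving out each library in turn gave 0 to 2 for wild type against control, 1 to 6 for TR1 against control (1 without the first control library, 6 without the first TR1 library), 0 to 3 for TR2 against control (3 without either TR1 library), 2 to 6 for TR1 against wild type (2 without either wild-type library), 0 to 4 for TR2 against wild type (4 without either TR1 library) and 1 to 3 for TR2 against TR1. In these fits a lone library is assumed to vary like the other groups. The number called over all tested genes moved with the settings as well. With only the groups compared it was 483 for TR1 against control, beside 1578 in the main fit. For TR2 against wild type it was 2971, beside 780. The member counts above are thus a description and do not set these genes apart from all others. The cause of these changes was not tested.

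Over all tested genes, the number called ranged over the alternatives from 46 to 1867 around 251 for wild type against control, from 483 to 5192 around 1578 for TR1 against control, from 18 to 2847 around 137 for TR2 against control, from 846 to 4768 around 2229 for TR1 against wild type, from 227 to 2971 around 780 for TR2 against wild type and from 29 to 1673 around 181 for TR2 against TR1. Median centring turned the split of TR2 against control from 78 higher and 59 lower to 111 and 142. MT-ND2 in TR1 against wild type changed from 0.27 to -0.057 on the log2 scale with quantile normalization. With the replicate number as a block, 0, 3, 0, 5, 0 and 1 members were called in the 6 comparisons (wild type, TR1 and TR2 against control, TR1 and TR2 against wild type, TR2 against TR1), the call lost being TAGLN. Deviations of same-numbered libraries correlated between -0.09 and 0.15, so the numbers were not taken as pairs. Planned count models on recovered reads were not run, since the deposited values are on a log2 scale; voom on those reads stood in for them and called 0, 3, 0, 6, 0 and 1 members. The voom fits and the length and GC fit were chosen after seeing the data. CNN1 and ACTG2 are limited by depth.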

Other observations

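The 2 TR1 libraries differed from each other over all tested genes (SD of the log2 difference 0.443, beside 0.279 to 0.331 in the other groups). Some genes that regulate contraction or partner SRF, picked after their values were seen, were higher in the second TR1 library. Other genes of contraction, among them ACTA2, MYL9 and TPM1, were lower in it than in the first. PPP1R12A, the myosin phosphatase targeting subunit, had 373 and 870 normalized counts in the first and second TR1 library, beside 370 to 596 in the other 6. ROCK1 had 241 to 444 and ROCK2 150 to 329 in the other 6 libraries, both below the second TR1 library.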
